A study of Rattus norvegicus with 12 samples.

Results

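The 9 keratin genes described here were followed between adherent and soft agar cells of 1 rat fibroblast line: Krt5, Krt7 and Krt8, which code type II keratins, and Krt10, Krt14, Krt15, Krt18, Krt19 and Krt20, which code type I keratins. They were selected on the contrast described here, so their own differences are given as a description with no test. A member was any probe set of the value table annotated to 1 of these 9 symbols alone, and each gene had 1 such probe set, which makes 9 of 31042 probe sets and 9 of the 14217 genes measured. RNA came from F111, a fibroblast cell line of the Fischer rat, and was hybridised to Affymetrix rat expression arrays. The A16 cells had grown on plastic for 16 h and were the control, and the Colony cells came from F111 cells that had spent 16 h in suspension and then 7 days in soft agar. By the methods, cells freed from the agar attached to a dish for a short time before they were processed, so the Colony cells were not taken directly from suspension. Each group had 3 arrays, biological replicates 1 and 2 and a technical replicate, so 2 cultures a group stood behind each value. The second Colony replicate carries 1 label that names tumour cells beside others that name colony cells, and values without it are given in the closing section for Krt7 and Krt8. Attachment, time, the earlier suspension and the soft agar differed together between the groups and cannot be told apart. The same holds for a change within cells and a change in which cells of the line were sampled.

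Keratins are the intermediate filament proteins of epithelia. A keratin filament is built from pairs of 1 type I and 1 type II chain, so a cell that makes filaments needs a partner of each type, and the pairs mark the kind of epithelium: Krt8 with Krt18 in simple epithelia, Krt5 with Krt14 in basal cells of stratified epithelia. Fibroblasts build their filaments mainly from vimentin, and cultured fibroblast lines can carry some simple epithelial keratins.

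Krt8 and Krt18 lie next to each other on rat chromosome 7, with 0 protein-coding genes between them in the RefSeq annotation of GRCr8, and are transcribed away from each other on opposite strands. Upstream sequences are shown for this pair because its type II gene was among the probe sets that rose most while the probe set of its type I gene stayed dim. RefSeq promoter entries matched 5 of the 9 keratins, namely Krt5, Krt8, Krt10, Krt18 and Krt20. The lines below hold the 175 bases from 250 to 76 bases before each annotated start, 5′ to 3′, with matches to the TATA box motif or the GC box motif in capitals. Krt8 is at chr7:135010415-135010589 on the minus strand and Krt18 at chr7:135035918-135036092 on the plus strand, both GRCr8.
Krt8: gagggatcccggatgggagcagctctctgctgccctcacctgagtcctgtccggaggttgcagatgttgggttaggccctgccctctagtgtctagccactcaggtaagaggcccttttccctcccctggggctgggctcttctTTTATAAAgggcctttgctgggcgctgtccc
Krt18: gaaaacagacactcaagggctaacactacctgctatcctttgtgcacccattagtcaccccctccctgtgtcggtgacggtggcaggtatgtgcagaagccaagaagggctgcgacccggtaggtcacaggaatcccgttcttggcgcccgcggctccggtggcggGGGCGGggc
Over the whole entry of 250 bases before and 50 after the start, with both strands searched, the TATA box motif, TATAAA, was in Krt8 on both strands in overlapping matches at bases 145 and 147, and the GC box motif, GGGCGG, was in Krt18 once, at base 167. TATAAA was found in 14.2% and GGGCGG in 33.1% of 33469 promoters of the same length. The AP-1 motif TGANTCA, found in 7.33% of them, was in the Krt8 entry at base 264, past the annotated start, and not in that of Krt18. These matches describe letters only. Krt5 held 1 GGGCGG, and Krt10 and Krt20 held 1 TATAAA each.

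Among the type II keratins, Krt8 rose and Krt7 fell, each by more than 4-fold. Krt8, the type II chain of simple epithelia, had RMA intensities in A16 of 672.3 in biological replicate 1, 669.1 in the technical replicate and 793.7 in biological replicate 2. In Colony the corresponding values were 3668, 3430 and 2891. Each Colony array was above every A16 array. The mean log2 intensity was 9.51 ± 0.17 (SD, n = 2 cultures) in A16 and 11.64 ± 0.21 in Colony, a log2 difference of 2.13 (SE 0.16) or a fold change of 4.39. The second summary of the same arrays, PLIER, gave intensities of 739.1, 730.7 and 880.6 in A16 and of 3862, 3793 and 3246 in Colony, with a fold change of 4.32 after 16 was added to each value. Of the 14217 genes, 128 rose by more.

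Krt7, the type II chain of ductal and glandular simple epithelia and of mesothelium, had RMA intensities of 2274, 2294 and 2290 in A16. In Colony they were 634.9, 536.3 and 410.1, all under every A16 array. The 3 A16 arrays lay close together, whereas the Colony arrays were more spread, with biological replicate 1 highest and biological replicate 2 lowest. The mean log2 intensity was 11.16 ± 0.0028 (SD, n = 2 cultures) in A16 and 8.93 ± 0.36 in Colony. The log2 difference was -2.22 (SE 0.19), which is 4.67-fold lower in Colony, and 162 genes fell by more. Under PLIER the intensities were 1963, 1930 and 2170 in A16 and 456.9, 389.0 and 320.7 in Colony. The PLIER difference was -2.43 with 16 added.

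The opposite differences of the pair were seen on each Colony array. The log2 intensity of Krt8 minus that of Krt7, set to 0 at the A16 mean, was -0.07, -0.09 and 0.16 on the A16 arrays. On the Colony arrays it was 4.22, 4.37 and 4.51, with a mean of 4.36. A factor common to all probe sets of 1 array cancels in this quantity. Levels of different probe sets are not compared here, since each depends on its own probes, so which of the 2 transcripts was more abundant was not measured.

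Krt5, the type II chain of basal cells, stayed dim. Its RMA intensities were 84.6, 80.9 and 78.1 in A16 and 82.0, 73.7 and 94.8 in Colony, with overlapping groups and a log2 difference of 0.09 (SE 0.15). PLIER did not give the same picture, with 112.1, 111.5 and 126.5 in A16 against 75.5, 82.4 and 89.6 in Colony. There the groups were apart and the log2 difference was -0.43 with 16 added.

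**Figure D1:**
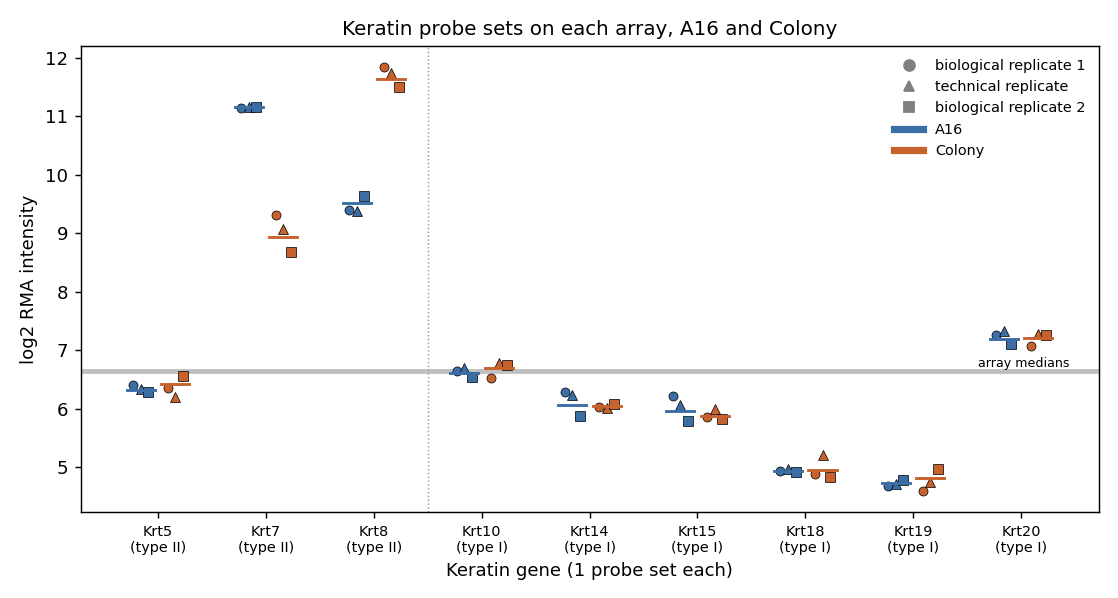
Log2 RMA intensity (vertical axis) of the 9 keratin probe sets (horizontal axis, type II left and type I right of the dotted line) on each of the 3 A16 and 3 Colony arrays; points are arrays, short lines the mean of 2 cultures, and the grey band the medians of all probe sets of the arrays. The groups stand apart for Krt7 and Krt8 and overlap for the other 7.

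None of the 6 type I keratins moved by as much as 0.1 on the log2 RMA scale. Krt18, the usual partner of Krt8, had RMA intensities of 30.6, 31.5 and 30.5 in A16 and 29.7, 37.2 and 28.7 in Colony. These overlapped, with a log2 difference of 0.01 (SE 0.14), and lay between the 13.4th and 22.7th percentile of all probe sets tested on their arrays. PLIER intensities of Krt18 were 76.3, 53.8 and 46.0 in A16 and 31.7, 69.7 and 61.4 in Colony, again overlapping. Krt19, a type I chain of simple epithelia and ducts, was also dim at 25.6, 26.2 and 27.4 in A16 and 24.1, 26.8 and 31.5 in Colony, for a log2 difference of 0.09 (SE 0.15). With 1 probe set for each gene and no sample of cells known to make Krt18 or Krt19, whether these probe sets report their transcripts was not tested, and a low intensity is not a measured absence.

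Krt20, the type I chain of intestinal epithelium, was above the array median on every array and did not separate the groups. It gave 153.9, 160.8 and 137.3 in A16 and 134.3, 156.2 and 153.0 in Colony (log2 difference 0.02, SE 0.14). Krt10, a chain of the outer layers of stratified epithelium, gave 100.5, 104.2 and 93.3 in A16 against 91.8, 110.0 and 107.4 in Colony, with a log2 difference of 0.09 (SE 0.13). Both sat near the array medians, which ran from 97.6 to 100.9.

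Krt14 and Krt15, type I chains of basal keratinocytes, lay a little under the array medians. Krt14 gave RMA intensities of 78.1, 75.3 and 59.0 in A16 and 65.2, 65.0 and 67.9 in Colony, a log2 difference of -0.02 (SE 0.16). As with Krt5, PLIER separated the groups of Krt14, with 80.3, 63.6 and 83.3 in A16 against 55.4, 47.4 and 50.8 in Colony and a log2 difference of -0.48 with 16 added. Krt15 gave 74.7, 67.1 and 55.2 in A16 and 58.1, 64.0 and 56.7 in Colony (log2 difference -0.09, SE 0.16). The falls of Krt5 and Krt14 were thus seen under 1 of the 2 summaries.

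**Figure D2:**
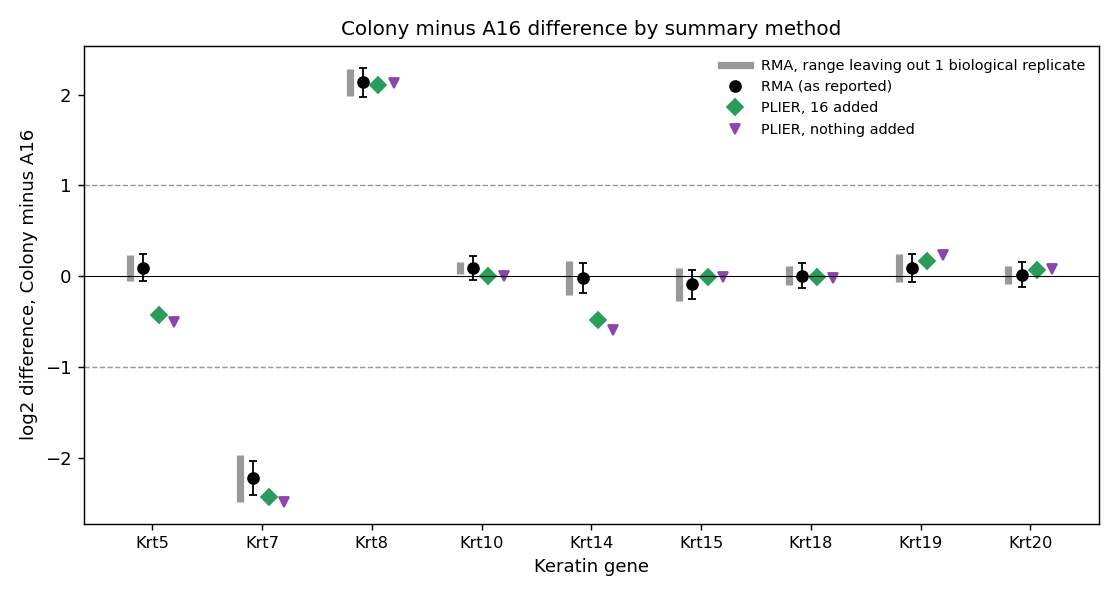
Log2 difference, Colony minus A16 (vertical axis), of each keratin (horizontal axis) from RMA (black, bars 1 SE), from PLIER with 16 added or with nothing added, and the range of the RMA difference when 1 biological replicate at a time was left out (grey bars); dashed lines mark 2-fold. Krt8 and Krt7 lie past 2-fold under each of these, and Krt5 and Krt14 sit lower under PLIER than under RMA.

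Over the 9 keratins, 1 was higher, 1 lower and 7 within 2-fold, with a median log2 difference of 0.02 beside 0.05 over all genes. For comparison, 4.36% of all genes were called higher and 4.75% lower (passing both an adjusted p of 0.05 and a 2-fold change, the meaning of passed and called throughout), and over probe sets rather than genes 9.81% were called in either direction. The same shares are the background for the gene lists that follow. Those lists differ in brightness, and no test of a list against the background was run. The 3 arrays of each group did not overlap for 2 of the 9 keratins in RMA, 4 in PLIER and 2 in both, while 47.6% of all genes did not overlap in RMA. The share of all genes was not counted in PLIER, so the PLIER counts have no background here. The 7 keratins within 2-fold had RMA intensities between 24.1 and 160.8. As they were chosen with these results known, nothing is read from their shares against the background.

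There were 16 other keratin genes that had a probe set of their own. Of these 16, 1 passed limma's test in Colony against A16, with Benjamini-Hochberg adjustment over all probe sets, and their median log2 difference was 0.03. Krt23, a type I keratin of simple epithelia, had RMA intensities of 34.4, 43.2 and 42.5 in A16 and 147.0, 154.7 and 167.1 in Colony. Every Colony array lay above every A16 array, and the log2 difference was 1.97 (SE 0.14, adjusted p = 0.000177). PLIER gave 1.58 with 16 added. Krt23 was the 1 keratin among the 16 to pass.

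The stratified keratins among the 16 gave no call. Krt17, a keratin of hair follicles and of wounded epidermis, had intensities of 96.9, 87.5 and 82.9 in A16 and 72.4, 66.1 and 82.4 in Colony, with a log2 difference of -0.21 (limma adjusted p = 0.384). Krt1, the partner of Krt10, differed by 0.12 (limma adjusted p = 0.565). The brightest Krt6c probe set differed by -0.48 (limma adjusted p = 0.046), under 2-fold, and 2 other probe sets gave -0.31 and 0.43. Krt6 genes are near-identical copies whose probes can share targets, so this value is uncertain, and Krt6c was named with its values known. Krt6a and Krt16 had no probe set with a single symbol and were not analysed here.

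Proteins that anchor or cross-link keratin filaments moved in both directions. Of 23 such genes measured, 3 rose, 3 fell and 17 did not pass, with a median log2 difference of 0.13. Itgb4, the integrin chain that holds keratin filaments at hemidesmosomes, had RMA intensities of 196.8, 154.2 and 219.5 in A16 and 4789, 3284 and 2300 in Colony. The groups were far apart, and the log2 difference was 3.95 (SE 0.26, limma adjusted p = 0.000153), a fold change of 15.4. Its partner chain Itga6 rose on its brightest probe set by 1.52 (SE 0.16, limma adjusted p = 0.000949), but its other probe sets gave 0.24, -0.89 and 0.33 and none of them passed. Col17a1 (-0.13) and Dst (0.33), also linked to hemidesmosomes, did not pass. Neither did Cd151 (0.61, limma adjusted p = 0.0198), which stayed under 2-fold. Pkp4, a plakophilin of cell junctions, rose by 1.01 (SE 0.13) on 1 probe set and fell by 1.69 (limma adjusted p = 0.00375) on another, so its direction was not settled, and the rise was under 2-fold without A16 replicate 1 (0.96) or Colony replicate 1 (0.93). Itga6 and Pkp4 are named because they complete the 3 that rose, a choice made with their values known.

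The 3 partners that fell were Pkp2, Jup and Eppk1. Pkp2, a desmosomal plaque protein, had RMA intensities of 247.5, 244.2 and 254.5 in A16 and 40.3, 32.7 and 38.3 in Colony, a log2 difference of -2.75 (SE 0.13, limma adjusted p = 3.91e-05). Jup, or plakoglobin, the armadillo protein of desmosomes and adherens junctions, went from 286.1, 326.4 and 392.4 to 117.4, 91.8 and 95.6 (log2 difference -1.80, SE 0.16, limma adjusted p = 0.000548). Eppk1, or epiplakin, which binds keratin networks, went from 364.1, 441.2 and 331.4 to 117.0, 130.9 and 113.1 (log2 difference -1.62, SE 0.15, limma adjusted p = 0.000597). In these 3 genes no Colony array reached an A16 array. Dsp, or desmoplakin, which ties keratins to the desmosome, gave 82.5, 88.8 and 74.6 in A16 and 93.3, 83.7 and 69.5 in Colony, with overlapping groups and a log2 difference of -0.03 (limma adjusted p = 0.933). The other desmosomal plaque proteins Pkp1 (-0.25) and Pkp3 (0.18) and the desmosomal cadherins Dsg1 (0.32), Dsc1 (0.33) and Dsc2 (-0.12) did not pass, nor did Dsg2 (-0.79), which stayed under 2-fold. Plec, or plectin, a linker of keratin and vimentin filaments, differed by -0.56 (limma adjusted p = 0.070).

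**Figure D3:**
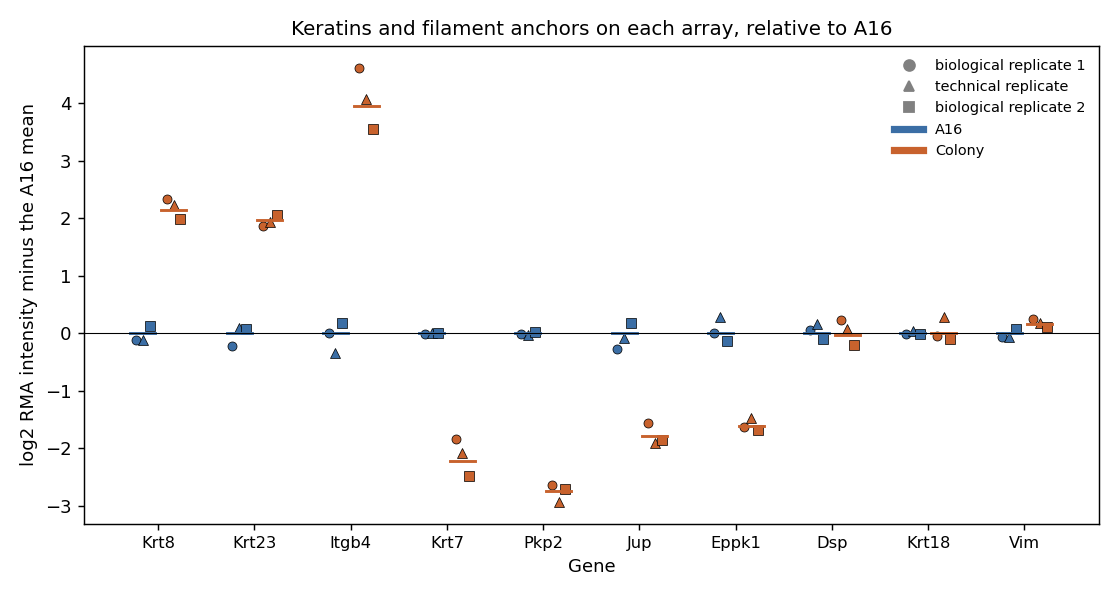
Log2 RMA intensity on each array minus the A16 mean of the same gene (vertical axis) for Krt8, Krt23, Krt7 and Krt18, for proteins that anchor keratin filaments (Itgb4, Pkp2, Jup, Eppk1, Dsp) and for vimentin; points are arrays and short lines the mean of 2 cultures. Krt8, Krt23 and Itgb4 lie above their A16 arrays, Krt7, Pkp2, Jup and Eppk1 below them, and Dsp and Krt18 overlap.

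The other intermediate filament genes gave 2 higher and 1 lower of 18, with a median log2 difference of 0.01. Vim, the main filament protein of fibroblasts, had RMA intensities of 19038, 19025 and 20840 in A16 and 23715, 22429 and 21433 in Colony. The groups did not overlap in RMA but did in PLIER, and the log2 difference was only 0.16 (SE 0.13, limma adjusted p = 0.471). Sync and Synm, filament proteins best known from muscle, rose by 1.17 (SE 0.27, limma adjusted p = 0.021) and 1.02 (SE 0.15, limma adjusted p = 0.0036) on their brightest probe sets, while their other probe sets gave -0.74 for Sync and -0.05 and -0.04 for Synm. Iffo2, a filament-related gene, fell by 1.55 (SE 0.41, limma adjusted p = 0.035), with A16 intensities of 90.0, 72.8 and 214.4 against 39.0, 44.1 and 48.7. None of these 3 calls was kept without Colony replicate 1, where the adjusted p or the fold change missed its threshold and the log2 differences were 0.77 for Sync, 0.89 for Synm and -1.44 for Iffo2. Sync also missed 2-fold without A16 replicate 1 (0.99), Synm without A16 replicate 2 (0.97) and Iffo2 without A16 replicate 2 (-0.85), and the adjusted p of Iffo2 was 0.080 without Colony replicate 2.

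Markers of epithelial cells gave 1 call, where 4.36% of all genes were called higher and 4.75% lower. Of 33 measured, 1 passed, and it fell, with a median log2 difference of 0.03, and their summed RMA intensity was 3005 to 3233 on the A16 arrays and 2470 to 2698 on the Colony arrays. Without Cdh3 the sum of the other 32 was 2026 to 2296 in A16 and 2290 to 2431 in Colony. Epcam, a surface protein of epithelia, lay between 21.9 and 26.4 on all arrays (log2 difference -0.13, limma adjusted p = 0.566). Cdh1, or E-cadherin, gave 30.6, 29.6 and 26.5 in A16 and 46.1, 44.9 and 49.0 in Colony. Its log2 difference of 0.74 (limma adjusted p = 0.00979) stayed under 2-fold, while a second probe set gave 0.25. Spint2 (0.84, limma adjusted p = 0.00878) and Prom2 (0.52, limma adjusted p = 0.0285) likewise rose by under 2-fold. Cdh3, or P-cadherin, was the marker that fell, from 736.6, 965.0 and 978.7 to 267.0, 256.7 and 179.6 (log2 difference -2.07, SE 0.20, limma adjusted p = 0.000767). Of the 33 markers, 22 were under the array median on every array and 5 above it.

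Mesothelial cells also make Krt7, Krt8, Krt18 and Krt19, and 10 of their other markers were measured. Of the 10, 1 rose and 2 fell, with a median log2 difference of 0.13 and summed intensities of 5400 to 5873 in A16 and 4912 to 5590 in Colony. Msln, or mesothelin, a surface protein of mesothelium, was 2420, 2745 and 2167 in A16 and 830.5, 764.6 and 668.8 in Colony (log2 difference -1.69, SE 0.16, limma adjusted p = 0.000627). Wt1, a transcription factor of mesothelium, fell by 1.66 (SE 0.14, limma adjusted p = 0.000374) on its brightest probe set and differed by -0.45 on another, which stayed under 2-fold. Lrrn4, a marker of mesothelial cells, rose by 1.45 (SE 0.13, limma adjusted p = 0.000549) on 1 probe set, and 2 others gave -0.02 and -0.01. The other 7 were within 2-fold, from -0.20 for Gpm6a to 0.49 for Pdpn (limma adjusted p = 0.037). The part of any such cells in the keratin values was not tested.

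**Figure D4:**
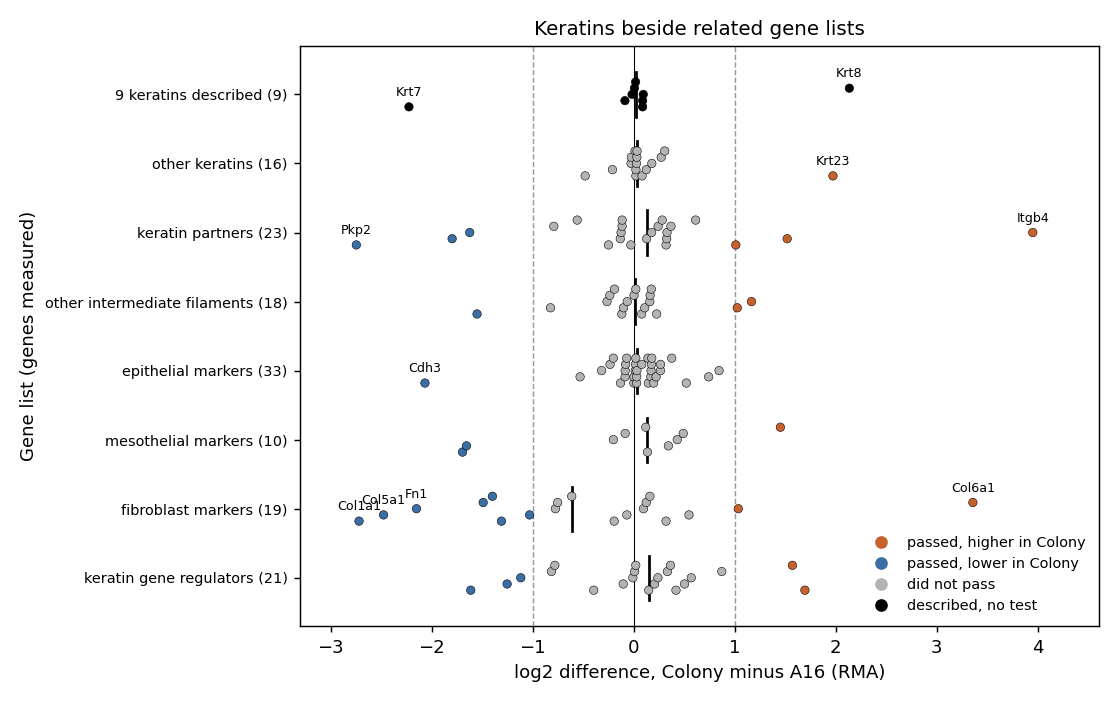
Log2 difference, Colony minus A16 in RMA (horizontal axis), of the 9 keratins and of the genes of each list (rows, number measured in brackets); each point is a gene by its brightest probe set, black bars are row medians, dashed lines mark 2-fold, and colour shows which genes passed limma's test. Krt7 and Krt8 lie at the ends of a row otherwise near 0, and the fibroblast markers have the lowest median, -0.61.

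Of 19 fibroblast markers measured, 13 were above the array median on all arrays and 5 under it. S100a4, a calcium-binding protein used as a fibroblast marker, was at 15088 or more on each. Dcn, or decorin, lay between 23.6 and 28.1 on all arrays. Lum, or lumican, was at 37.6, 39.5 and 39.3 in A16 and 22.9, 20.7 and 23.8 in Colony. The log2 difference of Lum, -0.78 (limma adjusted p = 0.00663), stayed under 2-fold. Such low intensities are not a measured absence. These 3 were chosen with their values known. Of the 19, 2 rose and 7 fell, with a median log2 difference of -0.61, and the summed intensity was 74050 to 83206 in A16 and 46914 to 50376 in Colony. Col1a1, a chain of type I collagen, fell by 2.72 (SE 0.31, limma adjusted p = 0.00136), Col5a1, a chain of type V collagen, by 2.48 (SE 0.15, limma adjusted p = 9.22e-05; a second probe set fell by 1.38) and Fn1, or fibronectin, by 2.15 (SE 0.13, limma adjusted p = 9.42e-05). Col6a1, a chain of type VI collagen, rose by 3.36 (SE 0.14, limma adjusted p = 2.73e-05). The part of these marker differences in the keratin values was not tested.

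Of 21 genes known to regulate keratins or the epithelial state, 2 rose and 3 fell, with a median log2 difference of 0.15. Klf4, a zinc finger factor of differentiating epithelia, had RMA intensities of 553.6, 562.5 and 763.0 in A16 and 1821, 2018 and 2326 in Colony (log2 difference 1.69, SE 0.19, limma adjusted p = 0.00136). Zeb1, a repressor of epithelial genes, went from 713.2, 739.8 and 688.8 to 1695, 2338 and 2218 (log2 difference 1.57, SE 0.13, limma adjusted p = 0.000436). Snai1, another repressor of epithelial genes, went the other way, from 573.3, 667.7 and 682.4 to 232.9, 239.7 and 190.9 (log2 difference -1.61, SE 0.16, limma adjusted p = 0.000719). Gli2, a transcription factor of the hedgehog pathway, fell by 1.25 (SE 0.15, limma adjusted p = 0.00191). Hdac1, a deacetylase, also fell, by 1.12 (SE 0.20, limma adjusted p = 0.00771) on its brightest probe set, while its other probe set gave -0.21. Zeb2 (0.24) and Twist1 (0.50), also on the list, did not pass. Among the genes that passed, Zeb1 thus rose and Snai1 fell.

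The probe sets whose course over the 6 arrays was most like that of Krt8, by Euclidean distance between mean-centred log2 RMA intensities over the 20817 probe sets with 1 symbol other than the 9 keratins, were those of Dipk1a (distance 0.16), Tuba4a (0.26), Slc4a11 (0.26), Gkap1 (0.28) and Prickle2 (0.31). Nearest to Krt7 were Tpm1, a tropomyosin of actin filaments (distance 0.20), H1f2, a linker histone (0.24), RT1-S3 (0.25), Nid1, a basement membrane protein (0.26) and Nrp1 (0.28). The 6 arrays fall into 2 groups, so this likeness mostly restates the group difference and is a description.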

How the data were processed

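RNA of F111 cells was hybridised to 6 arrays, 3 for A16 and 3 for Colony. The authors deposited 2 columns for each array, 1 summarised with RMA and 1 with PLIER, as intensity values on a linear scale. By the methods, scanned images were read with GeneChip Operating Software, for which a version is given. Both summaries were made in Avadis, with no version stated for Avadis, RMA or PLIER. RMA intensities ran from 11.6 to 25775 and PLIER intensities from 16.0 to 14687, and precision is limited by the number of arrays. The 16 added to PLIER values makes differences of dim probe sets smaller. RMA intensities were used as log2, and 57 control probe sets were left out, leaving 31042. Of these, 20826 had 1 gene symbol, 436 several and 9780 none in GEO's platform annotation, with symbols updated through RefSeq GRCr8. The brightest probe set stood for a gene. For named genes that passed, those named whatever their values and Krt6c, other probe sets are given where they differ in call or by over 1.5-fold. Those of Dsg1, Dst, Zeb2 and Twist1 are not given.

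The technical array of each group carries no biological number and was averaged, as log2, with biological replicate 1, giving 2 samples a group. Groups were compared with limma 3.58.1 (R 4.3.3; lmFit and eBayes), with Benjamini-Hochberg adjustment over 31042 probe sets. Genes passed or were called at an adjusted p below 0.05 with over 2-fold change. The labels do not describe the replicates as separate thaws or days, so p-values speak only for these samples. Each p-value rests on the spread between them, moderated by limma with the spread over all probe sets (4.76 prior degrees of freedom). SE is the moderated standard error of the log2 difference.

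Named were every keratin member, up to 4 called genes with the largest change of each list, 10 genes named whatever their values (Krt1, Krt6a, Krt16, Krt17, Vim, Dsp, Jup, Plec, Cdh1, Epcam), and the 5 probe sets nearest to Krt7 and to Krt8. Others (Itga6, Pkp4, Col17a1, Dst, Cd151, Krt6c, S100a4, Dcn, Lum, Hdac1, Zeb2, Twist1, Spint2, Prom2, Gpm6a, Pdpn and the desmosomal genes that did not pass) were named with their values known. The members and lists were chosen with earlier results of these data known. The fit was tested on simulated data. Alternatives were PLIER, other treatment of the technical arrays, each replicate left out, a filter on dim probe sets and other scaling. Further ones were the mean of a gene's probe sets, blocks and a plain t-test, the kind of test the paper names. The correlation between the groups of the replicate 1 minus replicate 2 differences was -0.15, so the numbers were not taken to pair the samples.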

Additional observations from a re-analysis of the deposited data

How the results depend on the processing

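Of the 9 keratins described, Krt8 and Krt7 were the 2 past 2-fold under every setting run. With 1 biological replicate left out at a time, the log2 difference of Krt8 ran from 1.99 (without Colony replicate 1) to 2.28 (without Colony replicate 2) and that of Krt7 from -2.48 (without Colony replicate 1) to -1.97 (without Colony replicate 2, the one with a label naming tumour cells). Krt7 was -2.48 with PLIER as log2 with nothing added. Krt5 and Krt14, near 0 in RMA, were -0.50 and -0.60 in the same PLIER setting, and the cause was not tested.

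The replicate block called 3121 probe sets against 3045 without it and changed the number of calls in none of the 7 lists, and the labels do not say that a number marks a shared culture. The crossed pairing, added after seeing the data because the replicate differences of the groups had a weak negative correlation (-0.15), called 3135. Leaving out 1 replicate gave 2794 to 3637, with 3040 without Colony replicate 2.

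A plain t-test on the same 2 cultures a group called 2383 probe sets unadjusted, and 0 after Benjamini-Hochberg, with 0 in each of the 7 lists. Krt23 had an adjusted p of 0.112 by this t-test, against 0.000177 by limma. The paper names a t-test without saying how technical arrays entered it, so this need not be the authors' own test. With dim probe sets left out, 0 other keratins were called, since Krt23 was itself left out, and 1 mesothelial marker. The 3 calls among other intermediate filaments became 0 to 2 with 1 replicate left out and 1 under the unadjusted t-test. Taking the mean of a gene's probe sets gave 0.30 for Itga6, 0.21 for Sync, 0.31 for Synm and 0.47 for Lrrn4, all under 2-fold, and turned Pkp4 to -0.34. Jup was -2.55 under PLIER. Hdac1, a deacetylase among the regulators, was called lower at -1.12 but not without Colony replicate 1 (-0.85), and its other probe set gave -0.21 (limma adjusted p = 0.307). With 2 cultures a group, and with dim probe sets such as Krt18 and Krt19, small differences were not detectable.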

Other observations

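The keratin genes lie in 2 clusters in the RefSeq annotation of GRCr8, type II genes with Krt18 on chromosome 7 and the other type I genes on chromosome 10. The median log2 difference, Colony minus A16, was 0.02 over 894 measured genes of chromosome 7, which holds 4 of the 9 keratins. It was 0.01 over 1213 genes of chromosome 10, which holds the other 5. The paper's karyotypes list a gain of chromosome 7 in most colony metaphases and in few A16 metaphases. A chromosome median does not measure the copy number of a gene, and the part of copy number in the keratin values was not tested.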
